A study of Mus musculus with 6 samples.

Results

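The RNA levels of 10 genes of the ETS family of transcription factors were followed: Ets1, Ets2, Elk1, Elk3, Etv4, Etv5, Etv6, Erf, Fli1 and Gabpa. They were taken by gene symbol from the deposited table of raw read counts, in which 10 of 21240 genes carried these names, and 9 of the 10 passed the filter on low values (2 CPM or more in 2 libraries or more, where CPM is the count scaled to the library total, and to TMM factors in all values below). Fli1 did not. The libraries were made from total RNA of NMuMG cells, an epithelial line from normal mouse mammary gland that is a common model of the epithelial-to-mesenchymal transition driven by transforming growth factor β (TGFβ). All cells were held without serum and insulin for 6 h and then received vehicle (HCl with BSA, taken after 2 h), 5 ng/ml TGFβ1 for 2 h or 5 ng/ml TGFβ1 for 12 h, with 2 biological replicates in each of the 3 groups. Vehicle was taken at 2 h alone, so in the comparison of 12 h with vehicle the effect of TGFβ1 and that of longer starvation cannot be told apart. The libraries held 14705886 to 23786993 counts, of which 15694 to 34596 fell on the 10 genes, and 3 counts corresponded to 0.131 to 0.191 CPM.

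ETS factors share a winged helix-turn-helix domain that reads a GGAA core, and they differ mainly in the bases and partner proteins around that core. Many are end points of the RAS-ERK kinase cascade: ERK phosphorylation raises the activity of Ets1, Ets2 and Elk1, relieves repression by Elk3 and sends the repressor Erf out of the nucleus. In mammary epithelium ETS factors are known for control of branching, of proteases that cut the extracellular matrix and of luminal differentiation. The questions put to the counts were which of the 10 genes changed in RNA level 2 h and 12 h after TGFβ1, and how the make-up of the family changed with them.

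Promoter sequences are shown because the family reads GGAA and members changed at different times, so that a reader can see how often the core stands before the members' own starts. The 250 bases before the annotated start came from RefSeq on GRCm38.p6, whose coordinates are not those of the counts. The table held 8 starts for 7 members (Elk1, Elk3, Erf, Ets2, Etv5 with 2 starts, Etv6 and Gabpa), and Ets1, Etv4 and Fli1 had no entry. GGAA and its reverse complement TTCC are in capitals.
Elk3 (chr10:93311160-93311409, minus strand): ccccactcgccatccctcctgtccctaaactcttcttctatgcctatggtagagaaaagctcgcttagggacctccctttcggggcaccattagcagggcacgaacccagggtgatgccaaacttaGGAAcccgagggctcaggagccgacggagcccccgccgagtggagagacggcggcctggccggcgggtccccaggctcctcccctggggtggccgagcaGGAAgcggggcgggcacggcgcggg
Erf (chr7:25250759-25251008, minus strand): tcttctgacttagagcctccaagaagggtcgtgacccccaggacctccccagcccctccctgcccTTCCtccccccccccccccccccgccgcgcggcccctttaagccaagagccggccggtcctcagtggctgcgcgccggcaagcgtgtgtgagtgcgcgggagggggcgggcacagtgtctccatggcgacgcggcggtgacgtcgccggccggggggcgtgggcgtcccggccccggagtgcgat
Etv5 (chr16:22439571-22439820, minus strand): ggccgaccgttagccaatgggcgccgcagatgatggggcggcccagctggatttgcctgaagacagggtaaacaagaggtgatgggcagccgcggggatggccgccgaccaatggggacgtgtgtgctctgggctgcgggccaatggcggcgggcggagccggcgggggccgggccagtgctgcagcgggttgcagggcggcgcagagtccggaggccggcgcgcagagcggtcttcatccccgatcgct
Etv6 (chr6:134035450-134035699, plus strand): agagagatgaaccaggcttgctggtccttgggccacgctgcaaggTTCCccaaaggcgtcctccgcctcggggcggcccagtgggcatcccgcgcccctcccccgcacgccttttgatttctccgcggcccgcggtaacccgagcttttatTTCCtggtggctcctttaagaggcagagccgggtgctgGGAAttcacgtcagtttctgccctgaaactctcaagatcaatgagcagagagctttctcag
Gabpa (chr16:84834874-84835123, plus strand): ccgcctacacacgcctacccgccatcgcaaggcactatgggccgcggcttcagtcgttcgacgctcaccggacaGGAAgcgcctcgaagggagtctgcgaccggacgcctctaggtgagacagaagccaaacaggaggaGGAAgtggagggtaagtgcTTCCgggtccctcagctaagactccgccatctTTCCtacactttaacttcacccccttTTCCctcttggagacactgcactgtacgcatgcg

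GGAA was searched on both strands. It occurred 5 times before Gabpa, 3 times before Etv6, 2 times before Elk3, and 1 time each before Elk1, Erf and Ets2. The Etv5 start shown held no match and its other start held 4. Over all 32851 promoters of this length 93.4% held the core at least 1 time, with a median of 3 matches, and 18.0% held 5 or more as Gabpa did. The longer ETS sequence CCGGAAG, which contains GGAA, stood only before Gabpa among the 8 starts and in 6.91% of all promoters. GGCGCC, a GC-rich sequence read by SMAD proteins, stood only before the Etv5 start shown and in 9.59% of all promoters. None of the 8 windows held the AP-1 sequence TGANTCA (6.75% of all promoters), the SMAD palindrome GTCTAGAC (0.167%) or a CArG box, the element read by SRF (1.47%). These matches describe letters in a window and not bound sites.

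The cell line was checked against marker genes. The 8 epithelial markers summed to 4965 to 10379 CPM per library and rested on Krt8, Krt18, Krt19 and Cdh1, whereas Epcam, Cldn7 and Esrp1 lay between 0 and 16 counts. The sums were 4965 and 5786 CPM in vehicle, 6447 and 6482 CPM at 2 h and 10332 and 10379 CPM at 12 h. Their members did not move alike at 12 h: Krt8 (log2FC 1.63, adjusted p = 0.000114) and Krt18 (1.53, adjusted p = 0.000275) rose, as did Krt7 (1.60, adjusted p = 0.0141), whose call was lost without vehicle replicate 2 or 12 h replicate 1 (log2FC 1.24 to 2.12 over the alternatives, highest adjusted p 0.0999), Krt19 fell by 1.95 on the log2 scale (adjusted p = 0.000103) from 1847 and 1666 CPM to 420 and 490 CPM, and Cdh1 gave no call (-0.075, adjusted p = 0.762). Endothelial markers, from cells known for high Fli1 and Ets1, summed to 0.530 to 2.14 CPM, with Pecam1 at 0 to 2 counts and Emcn and Cldn5 at 0 in every library. The endothelial sum was highest at 12 h (2.00 and 2.14 CPM), where Cdh5 had 36 and 39 counts. Blood cell markers summed to 5.32 to 9.74 CPM. Among them Cd68 had 95 to 124 counts (4.14 to 6.57 CPM) and gave no call, and Ptprc had 0 to 4 counts. Fibroblast markers summed to 2.12 to 3.90 CPM and did not move alike. Pdgfra, the only one tested, had 34 to 64 counts and gave no call (log2FC -0.011 at 2 h and 0.090 at 12 h). Pdgfrb went from 0 counts in both vehicle libraries to 2 and 3 at 2 h and 22 and 26 at 12 h. Dcn had 10 and 1 counts in vehicle, 11 and 2 at 2 h, and 1 and 0 at 12 h. Thy1, Dpt and Lum had at most 2 counts. Hbb-b1 was at 0 in all 3 libraries of replicate 1 and at 10, 40 and 13 counts in those of replicate 2 (vehicle, 2 h and 12 h), and Hba-a2 was at 0, 2 and 18 counts in replicate 1 and at 8, 43 and 24 in replicate 2. The part of these markers in the results was not tested. In RNA from a whole culture, a change in the number of expressing cells and a change in RNA per cell cannot be told apart.

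Ets2 was the most abundant member before TGFβ1, and Ets1 rose to its level at 2 h. Levels between genes were compared as CPM per kb of annotated exon. In vehicle Ets2 stood at 104.6 ± 8.22 (SD, n = 2), followed by Elk3 at 27.3 ± 1.63, Gabpa at 24.5 ± 1.05, Ets1 at 23.9 ± 0.0320 and Erf at 18.1 ± 0.609. The libraries of Gabpa and Ets1 overlapped, and those of the other neighbours in this order did not. Etv6 (5.42 ± 0.0875) and Elk1 (4.92 ± 0.509) formed a lower tier. Etv5 (0.606 ± 0.198) and Etv4 (0.357 ± 0.0758) were the lowest of the members that were tested.

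At 2 h Ets1 reached 96.5 ± 24.5 CPM per kb and overlapped Ets2 at 80.9 ± 2.82. Elk3 (45.4 ± 5.66) and Erf (42.7 ± 7.30) also overlapped each other, and both stood above Gabpa (25.6 ± 5.22). At 12 h Ets2 was again highest at 66.8 ± 2.25, ahead of Elk3 at 53.1 ± 2.42 and Ets1 at 51.7 ± 0.0991, which overlapped. Gabpa (28.8 ± 1.28), Erf (24.9 ± 2.55) and Etv6 (11.2 ± 0.00905) followed in that order without overlap.

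The family thus changed in make-up. Ets2 accounted for 49.9% ± 1.26 of the members' summed CPM per kb in vehicle, 27.0% ± 3.14 at 2 h and 27.4% ± 0.875 at 12 h (SD, n = 2). The share of Ets1 was 11.4% ± 0.625, 31.6% ± 3.33 and 21.2% ± 0.0775 in the same order, and that of Elk3 was 13.0% ± 0.0848, 15.04% ± 0.40 and 21.8% ± 0.955. Erf held 8.63% ± 0.170, 14.1% ± 0.284 and 10.2% ± 1.06. The summed level of the members was 202 and 218 CPM per kb in vehicle, 270 and 335 at 2 h and 243.8 and 244.4 at 12 h, so that both treated groups lay above vehicle. With the other ETS genes counted in, the members made up 64.7% to 66.8% of the family total in vehicle, 72.2% to 74.4% at 2 h and 76.5% to 77.3% at 12 h. No test was run on these shares.

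**Figure D1:**
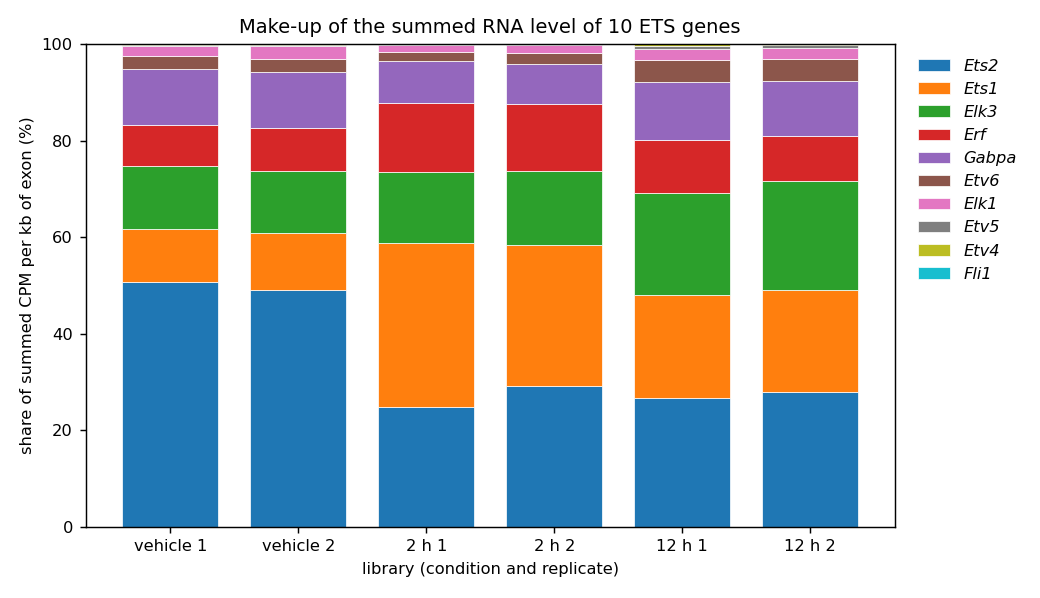
Stacked bars give each member's share, in percent, of the summed CPM per kb of exon in each of the 6 libraries. The Ets2 segment takes 49.9% on average in vehicle and 27.0% at 2 h, where the Ets1 segment has grown from 11.4% to 31.6%.

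Across the comparisons, 3 of the 9 tested members rose and 0 fell at 2 h against vehicle (calls at an adjusted p under 0.05, from the quasi-likelihood test of edgeR, with Benjamini-Hochberg adjustment over all 11080 tested genes). Among all tested genes 9.91% rose and 5.25% fell in that comparison. Ets1, Elk3 and Erf were the members that rose. At 12 h against vehicle 6 members rose (Ets1, Elk3, Etv4, Etv5, Etv6 and Erf) and 1 fell (Ets2), against 21.8% and 21.5% of all tested genes. The 6 were 4 without vehicle replicate 1 and 3 without vehicle replicate 2, 12 h replicate 1 or 12 h replicate 2. Etv4 passed the low-value filter only through the 12 h libraries. Between 12 h and 2 h, 3 members were higher at 12 h (Etv4, Etv5 and Etv6) and 2 were lower (Ets1 and Erf), where 15.2% of all tested genes were higher and 18.9% lower. These counts were 2 and 1 without 12 h replicate 1 and 3 and 0 without 12 h replicate 2. At 2 h the 3 were 2 without either vehicle library. The members' median log2FC was 0.067 at 2 h, 0.96 at 12 h and 0.17 from 2 h to 12 h, and that of all tested genes was -0.0091, 0.015 and 0.0092. Both comparisons with vehicle use the same 2 vehicle libraries, so their values are given side by side and are not independent.

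**Figure D2:**
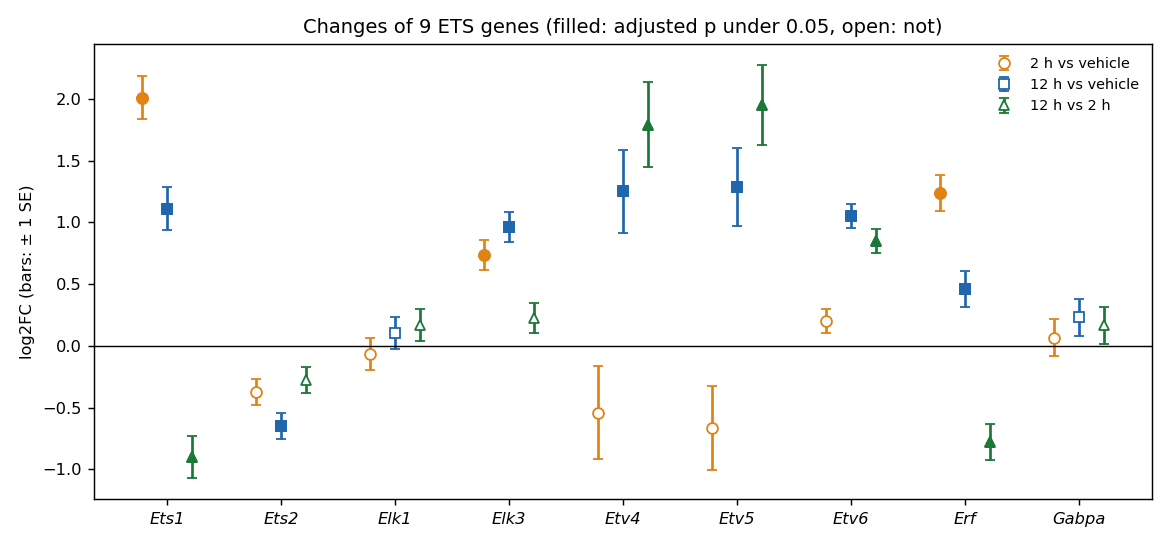
Points give log2FC and bars 1 SE for the 9 tested members in 3 comparisons, filled where adjusted p was under 0.05. Ets1 and Erf have their highest point at 2 h (2.01 and 1.24), whereas Etv4, Etv5 and Etv6 are filled only in the 2 comparisons that involve 12 h.

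Ets1 and Ets2 are paralogous activators and the namesakes of the family. Ets1 lies on chromosome 9 (NCBIM37, 32443806 to 32565405, plus strand) and showed the largest change of the members at 2 h. It stood at 154 CPM in both vehicle libraries, 731 and 508 CPM at 2 h, and 332 and 331 CPM at 12 h. No treated library came down to a vehicle library, and no 12 h library reached a 2 h library. The 2 h libraries differed from each other by 0.52 on the log2 scale, more than the median gene (0.22). Ets1 rose 4.03-fold at 2 h (log2FC 2.01, SE 0.177, adjusted p = 0.00107) and was 2.16-fold above vehicle at 12 h (log2FC 1.11, SE 0.173, adjusted p = 0.00270). From 2 h to 12 h it fell by 0.90 on the log2 scale (SE 0.171, adjusted p = 0.00848), a call lost without 12 h replicate 1 (log2FC -0.91, adjusted p = 0.0740) or 12 h replicate 2 (log2FC -0.91, adjusted p = 0.0737).

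Ets2 lies on chromosome 16 (95923682 to 95942658, plus strand) and was the only member called lower than vehicle. Its level was 520 and 465 CPM in vehicle, 391 and 372 CPM at 2 h, and 307 and 322 CPM at 12 h. The 3 groups did not overlap, with vehicle highest and 12 h lowest. At 12 h Ets2 was at 0.639 of its vehicle level (log2FC -0.65, SE 0.105, adjusted p = 0.00318). At 2 h the log2FC was -0.37 (SE 0.105, 95% interval -0.62 to -0.12) with adjusted p = 0.0614, which missed the threshold. It passed with the replicate number as a block (-0.37, adjusted p = 0.0207), with DESeq2 (-0.38, adjusted p = 0.00849) and with total counts in place of trimmed-mean scaling (-0.48, adjusted p = 0.0218). From 2 h to 12 h the log2FC of -0.28 (adjusted p = 0.0855) passed only with the block (-0.27, adjusted p = 0.0435).

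**Figure D3:**
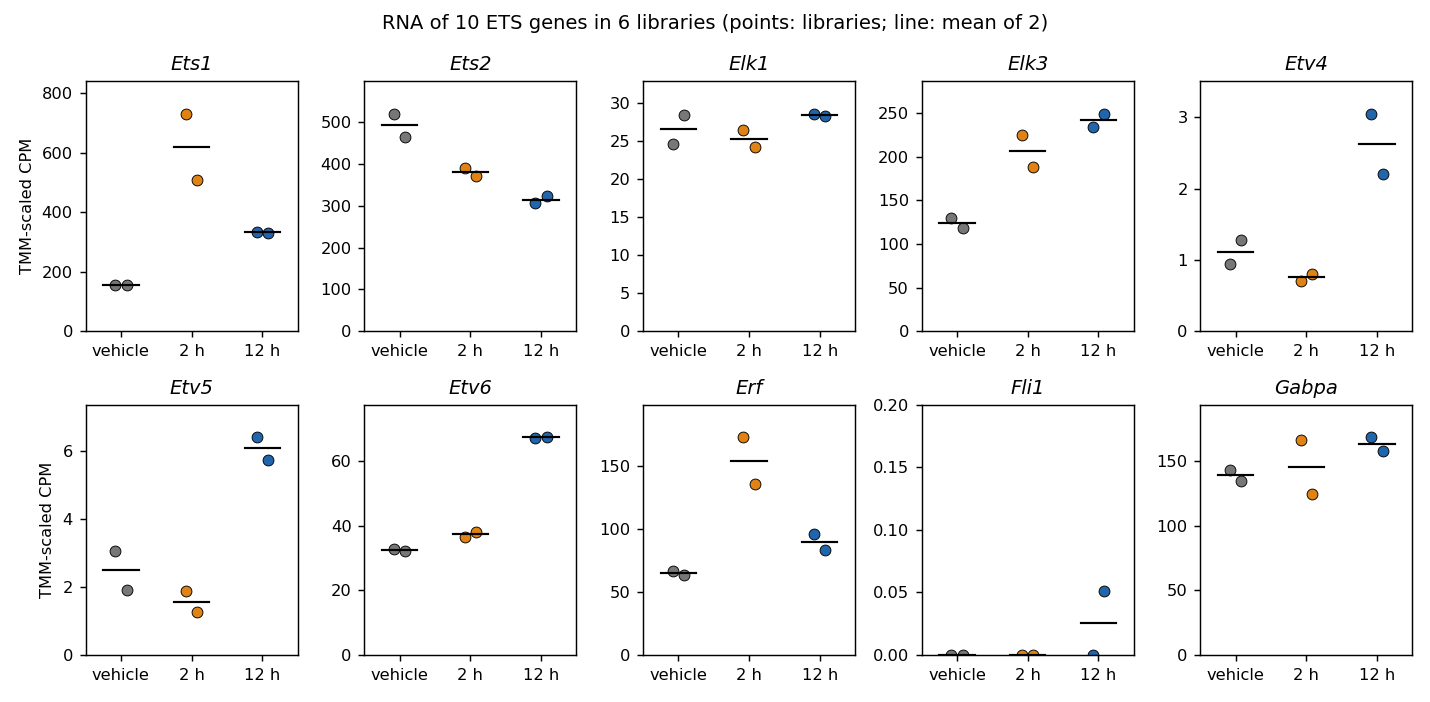
Each panel plots 1 gene in TMM-scaled CPM on a linear axis from 0, with 1 point per library and a line at the mean of 2 libraries. Ets1 and Erf peak at 2 h, Etv6, Etv5 and Etv4 are highest at 12 h, Ets2 is highest in vehicle, and Fli1 has a single count in 1 library.

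Elk1 and Elk3 are ternary complex factors, which bind DNA together with SRF at serum response elements. Elk3, also called Net, represses such elements until ERK phosphorylates it. It lies on chromosome 10 (92710159 to 92773880, minus strand) and rose at both times. Its level was 129 and 119 CPM in vehicle, 225 and 188 CPM at 2 h, and 234 and 250 CPM at 12 h. All 4 treated libraries lay above both vehicle libraries, and both 12 h libraries lay above both 2 h libraries. Elk3 was 1.66-fold higher at 2 h (log2FC 0.74, SE 0.122, adjusted p = 0.0103) and 1.95-fold higher at 12 h (log2FC 0.96, SE 0.122, adjusted p = 0.00116). The 2 h call was lost without vehicle replicate 1 (0.80, adjusted p = 0.0560) or vehicle replicate 2 (0.68, adjusted p = 0.0795). The difference between 12 h and 2 h was 0.23 (95% interval -0.063 to 0.52, adjusted p = 0.193).

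Elk1, which activates serum response genes once phosphorylated, gave no call in any comparison. It lies on chromosome X (20510521 to 20527734, minus strand). It was measured at 24.6 and 28.4 CPM in vehicle, 26.4 and 24.2 CPM at 2 h and 28.5 and 28.3 CPM at 12 h. The vehicle libraries overlapped both treated groups, and the 12 h libraries lay just above those at 2 h. Its log2FC was -0.068 at 2 h (95% interval -0.38 to 0.24, adjusted p = 0.771) and 0.10 at 12 h (95% interval -0.21 to 0.41, adjusted p = 0.567). A change of up to 0.41 on the log2 scale therefore lay within the interval.

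Etv4 and Etv5 belong to the PEA3 subfamily, whose genes are induced by FGF and ERK signaling in many epithelia and repressed by Cic. Both were low in every library and were highest at 12 h. Etv4 (chromosome 11, 101631056 to 101646685, minus strand) had 16 and 20 counts in vehicle, 14 and 16 at 2 h and 70 and 43 at 12 h, or 1.11 ± 0.235, 0.758 ± 0.0698 and 2.63 ± 0.595 CPM (SD, n = 2). Etv5 (chromosome 16, 22381382 to 22439792, minus strand) had 52 and 30 counts in vehicle, 37 and 25 at 2 h and 147 and 112 at 12 h, or 2.49 ± 0.813, 1.57 ± 0.432 and 6.08 ± 0.462 CPM. For both genes the 12 h libraries lay above all others, and the 2 h libraries lay below both vehicle libraries.

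At 12 h Etv4 was 2.38-fold above vehicle (log2FC 1.25, SE 0.336, adjusted p = 0.0234) and Etv5 2.44-fold (log2FC 1.28, SE 0.315, adjusted p = 0.0165). At 2 h their log2FC was -0.54 (95% interval -1.45 to 0.37, adjusted p = 0.392) and -0.67 (95% interval -1.48 to 0.15, adjusted p = 0.248). From 2 h to 12 h the log2FC was 1.79 for Etv4 (SE 0.344, adjusted p = 0.00878) and 1.95 for Etv5 (SE 0.325, adjusted p = 0.00518). Etv4 passed the low-value filter only through the 12 h libraries where it was high, while Etv5 also passed it in both vehicle libraries. Without any filter Etv4 had 1.25 at 12 h against vehicle (adjusted p = 0.0233) and 1.79 from 2 h to 12 h (adjusted p = 0.00625).

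Etv4 against vehicle at 12 h was lost with DESeq2 (1.24, adjusted p = 0.0718) and without vehicle replicate 1 (1.05, adjusted p = 0.134), vehicle replicate 2 (1.48, adjusted p = 0.0598), 12 h replicate 1 (0.98, adjusted p = 0.151) or 12 h replicate 2 (1.44, adjusted p = 0.0526). Etv5 against vehicle at 12 h was lost without vehicle replicate 2 (0.99, adjusted p = 0.0907), 12 h replicate 1 (1.19, adjusted p = 0.101) or 12 h replicate 2 (1.34, adjusted p = 0.0728). From 2 h to 12 h Etv4 lost its call without 12 h replicate 1 (1.53, adjusted p = 0.0728), and Etv5 kept its call in all 14 alternatives.

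Etv6 and Erf are the members best known as repressors. Etv6, also called TEL, lies on chromosome 6 (133985718 to 134220176, plus strand) and polymerizes through its pointed domain on DNA. It stood at 32.8 and 32.1 CPM in vehicle, 36.4 and 38.1 CPM at 2 h, and 67.2 and 67.2 CPM at 12 h. The groups did not overlap, and the step came between 2 h and 12 h. At 2 h the log2FC was 0.20 (SE 0.0989, 95% interval -0.036 to 0.44, adjusted p = 0.235). At 12 h Etv6 was 2.07-fold above vehicle (log2FC 1.05, SE 0.0989, adjusted p = 0.000342), and it rose by 0.85 from 2 h to 12 h (SE 0.0979, adjusted p = 0.00139). Both calls held in all 14 alternatives.

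Erf lies on chromosome 7 (26027580 to 26035780, minus strand) and, like Ets1, was highest at 2 h. Its level was 66.8 and 63.7 CPM in vehicle, 173 and 135 CPM at 2 h, and 96.2 and 83.2 CPM at 12 h. The 12 h libraries lay between vehicle and 2 h without overlap. Erf rose 2.36-fold at 2 h (log2FC 1.24, SE 0.147, adjusted p = 0.00304) and then fell by 0.78 on the log2 scale to 12 h (SE 0.145, adjusted p = 0.00786). The remaining 1.38-fold difference from vehicle at 12 h was small (log2FC 0.46, SE 0.146, adjusted p = 0.0427). That call was lost with total counts (0.33, adjusted p = 0.0914) and without vehicle replicate 1 (0.49, adjusted p = 0.119), vehicle replicate 2 (0.43, adjusted p = 0.166), 12 h replicate 1 (0.33, adjusted p = 0.253) or 12 h replicate 2 (0.55, adjusted p = 0.0945). The fall from 2 h to 12 h was lost without 12 h replicate 2 (-0.69, adjusted p = 0.0757).

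Gabpa encodes the DNA-binding subunit of GABP, which works as a complex with Gabpb1 or Gabpb2 at promoters of mitochondrial and other housekeeping genes. It lies on chromosome 16 (84835170 to 84864024, plus strand). It was measured at 143 and 135 CPM in vehicle, 167 and 125 CPM at 2 h and 169 and 158 CPM at 12 h. The 2 h libraries lay on either side of vehicle, and both 12 h libraries lay above vehicle. Its log2FC was 0.067 at 2 h (95% interval -0.29 to 0.43, adjusted p = 0.803) and 0.23 at 12 h (95% interval -0.13 to 0.59, adjusted p = 0.252). The difference from 2 h to 12 h (0.17, adjusted p = 0.426) passed the threshold only without 2 h replicate 1 (0.39, adjusted p = 0.0440).

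Fli1, which is known from endothelial and blood cells, was at 0 counts in 5 libraries and at 1 count in 12 h replicate 2. That is below the 3-count limit of 0.131 to 0.191 CPM in every library, so no fold was given. It lies next to Ets1 on chromosome 9 (32229793 to 32348974, minus strand), with 94.8 kb between the start sites, and Kcnj1 on its other side was at 0 counts in every library.

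Neighbouring genes were read for each member because the study asked whether TGFβ acts on stretches of adjacent genes. Here a neighbour is the next counted gene by start site whatever its level, whereas the study left out genes that were not expressed. Of the genes on either side of Ets1, Fli1 was near 0. Kirrel3, whose start lies as far as 1850 kb away, gave no call (log2FC 0.41, adjusted p = 0.369 at 2 h). Erg, the ETS gene next to Ets2 at 115 kb, was at 0 counts in every library, and Psmg1 on the other side at 289 kb gave no call (-0.32, adjusted p = 0.0705 at 12 h). Cdk17, a cyclin-dependent kinase gene 150 kb from Elk3, rose at 2 h (0.64, adjusted p = 0.0409) and at 12 h (0.48, adjusted p = 0.0474), whereas Lta4h on the other side did not pass (0.084 and -0.068). Dhx8, an RNA helicase gene 52.5 kb from Etv4, rose at both times (0.46, adjusted p = 0.0253, and 0.49, adjusted p = 0.00713). Jam2, a junctional adhesion gene 60.8 kb from Gabpa, rose by 1.14 at 2 h (adjusted p = 0.0193) and 2.33 at 12 h (adjusted p = 0.000378) while Gabpa itself gave no call. Atp5j, whose start lies 0.7 kb from that of Gabpa on the opposite strand, did not pass either (0.33, adjusted p = 0.119, or 0.0278 with the replicate block, and 0.12, adjusted p = 0.455).

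Both calls of Cdk17 were lost without either vehicle library or either 12 h library, and at 2 h also without 2 h replicate 1 (log2FC from 0.40 to 0.83 at 2 h and 0.35 to 0.59 at 12 h over 14 alternatives, highest adjusted p 0.193 and 0.230). That of Dhx8 at 2 h was lost without either vehicle or 12 h library or 2 h replicate 2 (log2FC 0.35 to 0.48, highest adjusted p 0.147) and at 12 h without 12 h replicate 2 (0.36 to 0.53, 0.0631). Jam2 lost its 2 h call without either vehicle library (log2FC 1.03 to 1.22, highest adjusted p 0.0997) and held at 12 h in all 14 alternatives.

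Erf lies between Gsk3a (12.9 kb) and Cic (16.9 kb). Cic encodes the repressor of Etv4 and Etv5. It had a log2FC of 0.52 at 2 h (adjusted p = 0.0989, or 0.00555 with the replicate block) and -0.0068 at 12 h (adjusted p = 0.979), and Gsk3a had 0.075 and 0.069 with no call. For Etv6 and Etv5 the neighbours with counts were few: Tra2b beside Etv5 gave no call (-0.24 and -0.020), and Dgkg, Kap and Bcl2l14 had at most 1 count. Elk1 lies between Cfp, which gave no call (-0.32 and -0.47), and A230072C01Rik, which was below the filter at 23 to 44 counts. Meox1, beside Etv4, was also below the filter, with 7 to 17 counts in vehicle and at 2 h and 0 at 12 h.

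Among the other ETS genes the calls at 12 h were all downward. Of 17 other ETS genes listed, 16 were in the table and 7 passed the filter. At 2 h 1 was higher (Elk4) and 0 were lower, against 9.91% and 5.25% of all tested genes. At 12 h 0 were higher and 4 were lower (Ehf, Elf3, Etv3 and Elf1), against 21.8% and 21.5%. The median log2FC of the 7 was 0.099 at 2 h and -0.43 at 12 h. With the replicate block the 2 h counts were 3 higher and 2 lower, as Elf2 (adjusted p = 0.0376), Elf4 (0.0367), Ehf (0.0351) and Elf1 (0.0308) then passed. Leaving out any 1 library gave 0 higher at 2 h, and the 12 h count of 4 was 1 without 12 h replicate 1 and 2 without 12 h replicate 2 or vehicle replicate 1.

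Ehf and Elf3 are epithelial ETS factors linked to luminal differentiation. Ehf stood at 150 and 129 CPM in vehicle, 134 and 84.9 CPM at 2 h, and 16.1 and 11.04 CPM at 12 h, a fall by 3.36 on the log2 scale (SE 0.281, adjusted p = 0.000228). Elf3 stood at 22.4 and 38.6 CPM in vehicle, 32.9 and 32.4 CPM at 2 h, and 11.2 and 14.0 CPM at 12 h (log2FC -1.27, SE 0.264, adjusted p = 0.00857). For both genes the 12 h libraries lay below all others. Etv3, a repressor close to Erf, was lower at 12 h (-0.53, adjusted p = 0.0116), as was Elf1 (-0.43, adjusted p = 0.0240). The third ternary complex factor, Elk4, had a log2FC of 0.37 at 2 h (adjusted p = 0.0458), which held in only 4 of 14 alternatives, and 0.15 at 12 h (adjusted p = 0.234).

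Elf2 (0.32 and 0.18) and Elf4 (0.40 and -0.16) gave no call against vehicle without the block, and Elf4 was lower at 12 h than at 2 h (-0.56, adjusted p = 0.0388), a call lost without 2 h replicate 2 or either 12 h library (log2FC -0.69 to -0.42, highest adjusted p 0.169). Leaving out 12 h replicate 1 ended the 12 h calls of Elf3, Etv3 and Elf1. Leaving out 12 h replicate 2 or vehicle replicate 1 ended those of Etv3 and Elf1, and the Ehf call held throughout. In these alternatives and the others the log2FC stayed between -1.61 and -0.83 for Elf3, -0.66 and -0.47 for Etv3, and -0.55 and -0.31 for Elf1. The 9 other ETS genes in the table, among them Erg, Etv1, Etv2, Spi1 and Elf5, were below the filter.

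Partner proteins and regulators of the members were read from a list of 16 genes, of which 15 were tested. At 2 h 5 were higher and 0 lower (9.91% and 5.25% of all tested genes), and at 12 h 6 were higher and 1 lower (21.8% and 21.5%). The 2 h count higher was 8 with the replicate block, 2 without vehicle replicate 1 and 3 without vehicle replicate 2 or with only the 2 groups compared, and the 12 h count higher was 3 without 12 h replicate 1. Runx1, a DNA-binding partner of Ets1, stood at 17.7 and 15.3 CPM in vehicle, 186 and 143 CPM at 2 h, and 173 and 134 CPM at 12 h. All 4 treated libraries were far above vehicle, with log2FC of 3.32 at 2 h (SE 0.20, adjusted p = 0.000310) and 3.21 at 12 h (SE 0.199, adjusted p = 8.45e-05). Cbfb, the partner of Runx proteins, was higher at 12 h (1.27, adjusted p = 0.00584). At 2 h it gave no call in the fit without a block (0.51, adjusted p = 0.209) and passed with the block (adjusted p = 0.0123).

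Mkl1, a coactivator of SRF that competes with the ternary complex factors, rose by 0.95 at 2 h (adjusted p = 0.00851) and 1.42 at 12 h (adjusted p = 0.000540). Srf itself gave no call in the fit without a block (0.082, adjusted p = 0.731, and 0.38, adjusted p = 0.0622). At 12 h it passed with the replicate block (adjusted p = 0.0117). Trib1, which recruits the ubiquitin ligase Rfwd2 (COP1), rose by 1.24 at 2 h (adjusted p = 0.00243). At 12 h it was 0.54 above vehicle (adjusted p = 0.0198) and 0.70 below its 2 h level (log2FC -0.70, adjusted p = 0.00886). Rfwd2 and Det1, parts of the ligase that degrades Etv4, Etv5 and Ets proteins, gave no call (log2FC -0.16 to 0.11). Atxn1, a cofactor of Cic, had a log2FC of 0.92 at 2 h (adjusted p = 0.0111) and 2.34 at 12 h (adjusted p = 0.000110). Gabpb2, the partner subunit of Gabpa, was the gene that fell (-0.71, adjusted p = 0.00229 at 12 h). Gabpb1 gave no call in the fit without a block (0.45 and 0.30) and passed at 2 h with the block (adjusted p = 0.0266). The 2 h call of Mkl1 was lost without vehicle replicate 1 and the 12 h call of Cbfb without 12 h replicate 1, with highest adjusted p of 0.0561 and 0.0520 and log2FC from 0.79 to 1.12 and from 0.99 to 1.47 over the 14 alternatives.

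**Figure D4:**
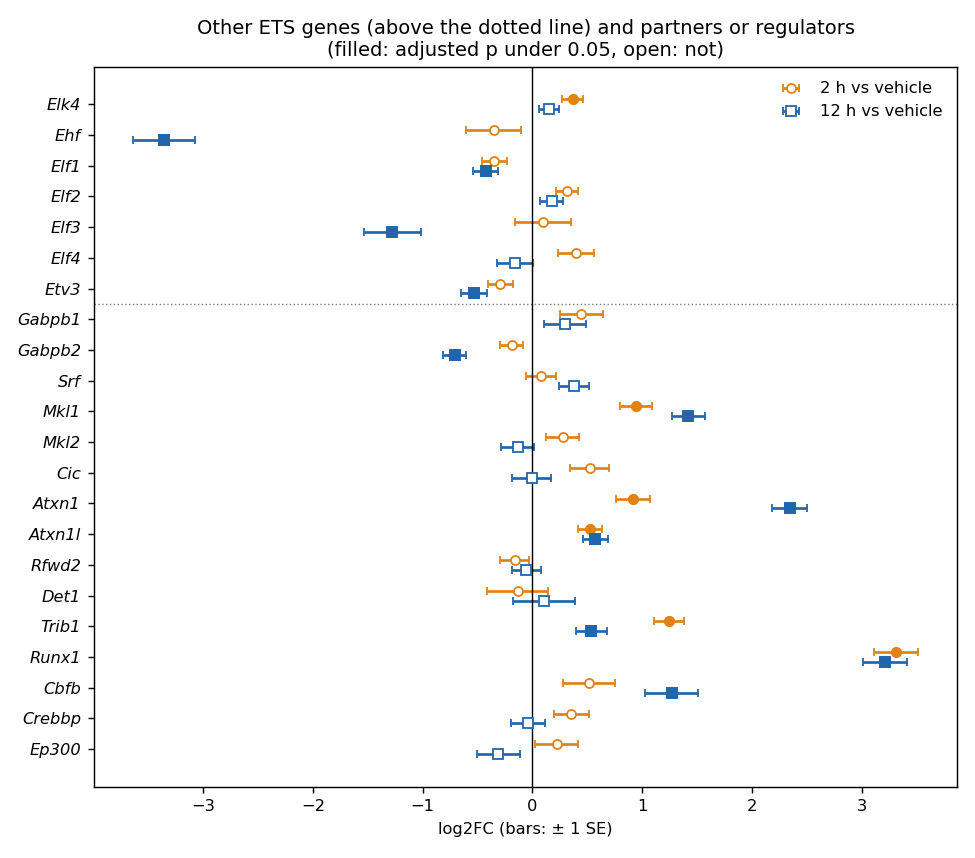
Points give log2FC against vehicle and bars 1 SE for 7 other ETS genes and 15 partners or regulators of the family at 2 h and 12 h, filled where adjusted p was under 0.05. Ehf is the far left point at 12 h (-3.36) and Runx1 is far right at both times (3.32 and 3.21).

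The RAS-ERK cascade that signals to ETS factors was tested in 21 of 22 listed genes. At 2 h 3 were higher, among them Egfr (1.23) and Map2k2 (0.53), and 0 lower (9.91% and 5.25% of all tested genes), and the replicate block gave 6 higher and 1 lower. At 12 h 5 were higher and 3 lower (21.8% and 21.5% of all tested genes), with a median log2FC of -0.013. The 2 h count higher was 1 without vehicle replicate 2 and 2 without each of the other libraries but 2 h replicate 1 (4). The 12 h counts were 2 and 2 without 12 h replicate 1, 3 and 2 without 12 h replicate 2 or vehicle replicate 1, and 3 and 3 without vehicle replicate 2. At 12 h Fgfr2, the FGF receptor of epithelia, fell by 3.44 on the log2 scale, from 46.0 and 43.2 CPM in vehicle to 3.66 and 4.57 CPM at 12 h. Fgfr1, the receptor more typical of mesenchyme, went from 2.30 and 1.53 CPM to 6.15 and 6.68 CPM (log2FC 1.74, adjusted p = 0.0138), and Egfr from 69.1 and 66.1 CPM to 227 and 219 CPM (log2FC 1.72). Fgfr3 gave no call (-0.14, adjusted p = 0.774). The kinase gene Rps6ka1 fell by 1.12 (adjusted p = 0.000232) and Shc1 by 0.33 (adjusted p = 0.0377), a call lost without any 1 of the vehicle and 12 h libraries (log2FC -0.46 to -0.28 over the alternatives, highest adjusted p 0.186). The Fgfr1 call was lost without vehicle replicate 2, 12 h replicate 1 or 12 h replicate 2 (log2FC 1.48 to 2.06 over the alternatives, highest adjusted p 0.0775). The 2 h call of Map2k2 held in 7 of 14 alternatives.

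Genes that respond to ERK and ETS activity, most of them feedback inhibitors, were read in 15 of 16 listed genes. At 2 h 4 were higher and 3 lower (9.91% and 5.25% of all tested genes), and at 12 h 9 were higher and 2 lower (21.8% and 21.5%). The median log2FC of the list was -0.24 at 2 h and 1.18 at 12 h. Between 12 h and 2 h 8 were higher and 0 lower (15.2% and 18.9%). The 2 h counts were 1 and 1 without vehicle replicate 1, 2 and 1 without vehicle replicate 2, 3 and 1 without either 12 h library or with only the 2 groups compared, 4 and 5 without 2 h replicate 1, and 4 and 1 without 2 h replicate 2. The 12 h count lower was 1 without any 1 of the vehicle and 12 h libraries, and the 8 between times were 5 without 12 h replicate 1.

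Spry1, a feedback inhibitor of receptor signaling, fell from 23.0 and 17.5 CPM in vehicle to 1.72 and 2.47 CPM at 2 h (log2FC -3.27, adjusted p = 0.00114), and stood at 6.97 and 4.93 CPM at 12 h (-1.76, adjusted p = 0.00235). Dusp5, a nuclear phosphatase of ERK, rose at both times (1.34, adjusted p = 0.0105, and 2.95, adjusted p = 0.000158). Dusp6, the cytoplasmic ERK phosphatase, had -0.83 at 2 h (adjusted p = 0.120, or 0.00235 with the replicate block), 0.59 at 12 h (adjusted p = 0.147, or 0.00301 with the block) and 1.42 between them (adjusted p = 0.0122). Myc (1.91) and Ier3 (1.83) were higher at 12 h and gave no call at 2 h (0.053 and -0.31). Without either vehicle library the 2 h call of Dusp5 was lost (log2FC 1.23 to 1.42, highest adjusted p 0.0736), and without either 12 h library the 12 h to 2 h call of Dusp6 was lost (1.14 to 1.77, 0.0919).

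Among the tested genes, the 3 most like each strongly changed member were found by Pearson's r of log2 CPM over the 6 libraries, which share 3 groups, so that r mostly describes the group pattern. Ets1 was most like Krba1 (r = 0.996), AI661453 (0.993) and Vkorc1l1 (0.992). Erf was most like Olfml2b (0.996), Mex3c (0.995) and Arl4d (0.993), and Etv6 most like Bmper, Prss46 and Pla2g12a (0.9997, 0.9997 and 0.9995). Etv4 was most like Pdia5 (0.994), Senp5 (0.993) and Ttc12 (0.993), and Etv5 most like Lix1l (0.997), Armc10 (0.997) and Dimt1 (0.995). Within the family, r was 0.970 between Ets1 and Erf and 0.889 between Etv4 and Etv5, whereas Ets2 ran opposite to Elk3 (-0.905) and Etv6 (-0.890).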

How the data were processed

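Total RNA of 6 NMuMG cultures was made into stranded libraries (TruSeq Stranded Total RNA) and read as single 50-base reads. The authors aligned the reads to mm9 with Subread and deposited 1 table of raw counts per gene from featureCounts, and their processing notes name limma 3.34.9, edgeR 3.20.9 and SAMtools 0.1.19. Per the study's methods, reads were mapped with the subjunc aligner of Rsubread, keeping unique matches, duplicates were removed with SAMtools, and reads in exons of UCSC known genes were counted by strand, without miRNAs. Removal of duplicates from single reads can lower the counts of abundant genes. From the deposited counts, 11080 of 21240 genes were kept, those that reached 2 CPM (before TMM scaling) in 2 libraries or more. Libraries were scaled by trimmed means (TMM factors 0.961 to 1.07), and 3 contrasts were taken from 1 quasi-likelihood fit over all 6 libraries in edgeR 4.0.16 (R 4.3.3), without a replicate block. P-values were adjusted by Benjamini-Hochberg, with calls at adjusted p under 0.05. SD and n refer to the 2 libraries of a group.

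The 10 members and all gene lists were chosen with earlier results of these data known, and no list or member set was tested as a set. Named were all members, every other ETS gene past the filter, called genes of the other lists (at most 3 in each direction by size, with members of a complex or pathway added after their values were seen), both neighbours of each member, and 3 genes most like each member called with a log2FC over 1 in size. Calls come from the fit without a block. The blocked value is given where it changes a call, because deviations from group means correlated between same-numbered libraries in all 3 pairs of groups (r = 0.71, 0.26 and 0.39), as a hint from the data, since the labels give only a biological replicate number. Alternatives were the replicate block, DESeq2 1.42.0, voom with limma 3.58.1, other scalings and filters, only the 2 groups compared, and leaving out each library. Positions came from GENCODE M1 on NCBIM37 (mm9), in which 810 of 21240 counted genes had no position. Some genes of the lists are not reported here by name.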

Additional observations from a re-analysis of the deposited data

Results flagged for a closer look

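The effects of TGFβ1 at 2 h and at 12 h differed by a direct test, the 12 h against 2 h contrast of edgeR's quasi-likelihood fit, for 5 of the 9 tested members. Among all tested genes 15.2% were called higher and 18.9% lower at 12 h than at 2 h. The difference was -0.90 for Ets1 (adjusted p = 0.00848) and -0.78 for Erf (adjusted p = 0.00786), which were higher at 2 h, and both libraries at 12 h lay below both at 2 h. It was 1.79 for Etv4 (adjusted p = 0.00878), 1.95 for Etv5 (adjusted p = 0.00518) and 0.85 for Etv6 (adjusted p = 0.00139), which were higher at 12 h in both libraries. Etv4 passed the low-value filter only through its 12 h libraries, and without any filter its difference was 1.79 (adjusted p = 0.00625). The longer starvation at 12 h cannot be told apart from the longer exposure. Without 12 h replicate 1 the calls of Ets1 (-0.91, adjusted p = 0.0740) and Etv4 (1.53, adjusted p = 0.0728) were lost, and without 12 h replicate 2 those of Ets1 (-0.91, adjusted p = 0.0737) and Erf (-0.69, adjusted p = 0.0757). No group held more than 2 libraries, so no library could be tested for standing apart from its group.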

How the results depend on the processing

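For the log2FC of the 9 tested members, 348 of 378 alternative values (14 alternatives in each of 3 comparisons) kept their direction and their side of the threshold, 19 lost a call, 5 gained 1 and 6 changed sign. The sign changes were all of uncalled values. With total counts they were Gabpa at 2 h (-0.048) and Elk1 at 12 h (-0.030). Leaving out 1 library at a time gave Elk1 values from -0.17 to 0.041 at 2 h and -0.0014 to 0.21 at 12 h, and Gabpa values from -0.18 to 0.26 at 2 h and -0.028 to 0.39 between 12 h and 2 h. The number of members called was 3 at 2 h (2 to 3 leaving out 1 library at a time), 7 at 12 h (4 to 7) and 5 between 12 h and 2 h (3 to 6). Each setting that leaves out a library assumes that the lone sample left varies like the other groups. Over all genes, 1680 were called at 2 h (637 to 2200 leaving out 1 library), 4799 at 12 h (2900 to 5419) and 3775 between them (1683 to 3821). The 2 h count was 893 with only the 2 groups compared. With the replicate block as a pairing it was 3222 (1813 higher and 1409 lower), and among member calls the block changed only those of Ets2 at 2 h and from 2 h to 12 h. Without vehicle replicate 1 or 2 the 2 h count was 637 or 721, without 12 h replicate 1 or 2 it was 908 or 904, and without them the 12 h count was 2973 or 2900 and the count between times 1683 or 1740. Total counts in place of TMM factors shifted the median log2FC of all genes by -0.11 at 2 h and -0.13 at 12 h and turned the split from 1098 higher and 582 lower into 854 and 975 at 2 h, and from 2414 and 2385 into 1830 and 3047 at 12 h. The cause of these shifts was not tested. Depth limits Etv4, Etv5 and Fli1, which had at most 147 counts in any library.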
